A study of Mus musculus with 4 samples.

Results

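The small nucleolar RNA (snoRNA) host genes described here are Gas5, Snhg1, Snhg3, Snhg5, Snhg6, Snhg8, Snhg12 and Snhg15, the 8 rows chosen by gene name from the 39186 genes of the deposited table, and all 8 names were found. The question put to them was whether their RNA differs between hematopoietic stem and progenitor cells with and without PICH, a DNA translocase encoded by Ercc6l that acts on chromatin bridges at anaphase. RNA sequencing was performed on LSK cells (lineage-negative, Sca-1+, c-Kit+) sorted from mouse fetal liver of strain C57BL/6, with 2 wild type samples (Pich-WT) and 2 germline knockout samples (Pich-KO), in which every cell of the embryo carries the mutant allele. No transgene, Cre or drug treatment is given for either group. The labels do not say whether the 2 samples of a group came from separate embryos, so the p-values below rest on the spread between these samples, which may be technical. The main test estimates that spread partly from other genes of similar mean. With 2 against 2 an exact two-sided permutation test could not go below p = 0.333.

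A noncoding host gene is transcribed by RNA polymerase II and spliced, and its snoRNAs are trimmed out of the removed introns. Box C/D snoRNAs guide 2′-O-methylation and box H/ACA snoRNAs guide pseudouridylation, mostly of ribosomal RNA, and a few act in cutting the ribosomal RNA precursor. The spliced exons that remain carry no long conserved reading frame, and in several hosts they belong to the 5′ terminal oligopyrimidine (TOP) class, whose RNAs engage ribosomes according to growth signals. Spliced RNA of hosts such as Gas5 and Snhg1 is a known substrate of nonsense-mediated decay and accumulates when translation is blocked. The values below are those listed for the host genes, not for their snoRNAs. In Gas5, Snhg1, Snhg5, Snhg8, Snhg12 and Snhg15 the annotated exons include retained introns that cover the snoRNA loci. Reads from snoRNA or unspliced sequence there could be counted in the host values.

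In GENCODE M21 (build GRCm38), 28 snoRNA loci lie in introns of the 8 genes, with 9 in Gas5, 8 in Snhg1, 4 in Snhg12, 2 each in Snhg3 and Snhg5, and 1 each in Snhg6, Snhg8 and Snhg15. Of these, 16 held both the C box letters TGATGA within their first 20 bases and a D box CTGA starting within their last 14 bases, 6 held ACA near the 3′ end, and 6 held neither by these letters. By these letters Gas5, Snhg1, Snhg5 and Snhg6 host box C/D RNAs, Snhg3, Snhg8 and Snhg15 host box H/ACA RNAs, and Snhg12 hosts both kinds. One or more sequences per host are shown because they are what each host carries, with the boxes in capitals:
Snord80 (intron of Gas5, chr1:161037601-161037681, plus strand): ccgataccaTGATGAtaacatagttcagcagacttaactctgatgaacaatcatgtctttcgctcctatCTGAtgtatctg
Snord47 (intron of Gas5, chr1:161038082-161038158, plus strand): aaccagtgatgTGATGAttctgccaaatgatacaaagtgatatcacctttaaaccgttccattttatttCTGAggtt
Gm25855 (intron of Snhg1, chr19:8723993-8724064, plus strand): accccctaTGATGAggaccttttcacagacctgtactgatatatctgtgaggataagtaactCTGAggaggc
Snord50a (intron of Snhg5, chr9:88521529-88521600, minus strand): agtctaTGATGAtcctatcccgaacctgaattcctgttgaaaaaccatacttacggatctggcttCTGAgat
Snord50b (intron of Snhg5, chr9:88521797-88521868, minus strand): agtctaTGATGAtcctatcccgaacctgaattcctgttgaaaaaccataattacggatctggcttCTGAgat
Snord87 (intron of Snhg6, chr1:9942463-9942549, minus strand): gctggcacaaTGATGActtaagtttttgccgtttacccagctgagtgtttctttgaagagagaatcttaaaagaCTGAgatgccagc
Snord99 (intron of Snhg12, chr4:132310691-132310764, plus strand): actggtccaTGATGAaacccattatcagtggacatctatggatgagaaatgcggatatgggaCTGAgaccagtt
Snora61 (intron of Snhg12, chr4:132310240-132310369, plus strand): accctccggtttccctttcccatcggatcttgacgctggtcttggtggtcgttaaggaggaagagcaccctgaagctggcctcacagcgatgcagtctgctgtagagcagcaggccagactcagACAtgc
Snora24 (intron of Snhg8, chr3:123507937-123508066, minus strand): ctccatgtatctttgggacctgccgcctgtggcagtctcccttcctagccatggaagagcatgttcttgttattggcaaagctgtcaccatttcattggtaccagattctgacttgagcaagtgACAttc
Snora9 (intron of Snhg15, chr11:6528033-6528165, minus strand): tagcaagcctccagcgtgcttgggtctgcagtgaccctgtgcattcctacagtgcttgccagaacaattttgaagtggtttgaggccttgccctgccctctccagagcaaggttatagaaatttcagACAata
Snora73a (intron of Snhg3, chr4:132352775-132352979, minus strand): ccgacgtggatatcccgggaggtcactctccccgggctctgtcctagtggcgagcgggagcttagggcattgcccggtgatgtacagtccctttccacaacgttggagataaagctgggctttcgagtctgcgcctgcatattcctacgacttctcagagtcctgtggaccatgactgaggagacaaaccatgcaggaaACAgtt
The sequences were read from the GENCODE M21 transcripts, 5′ to 3′ as DNA letters. Snord50a and Snord50b, both 72 bases long, differed by the single substitution C50A (Snord50a base first, counted from 1 at the 5′ end). Snora73a, also known as U17 and needed for early cleavage of the ribosomal RNA precursor, differed from Snora73b at 7 of 205 bases. Of the 28 loci, Snord87 was listed in the table, with 2 and 3 reads in Pich-KO, against 0 and 3 reads in Pich-WT, at or under the floor of 3 reads, and the others were not analysed here.

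**Figure D1:**
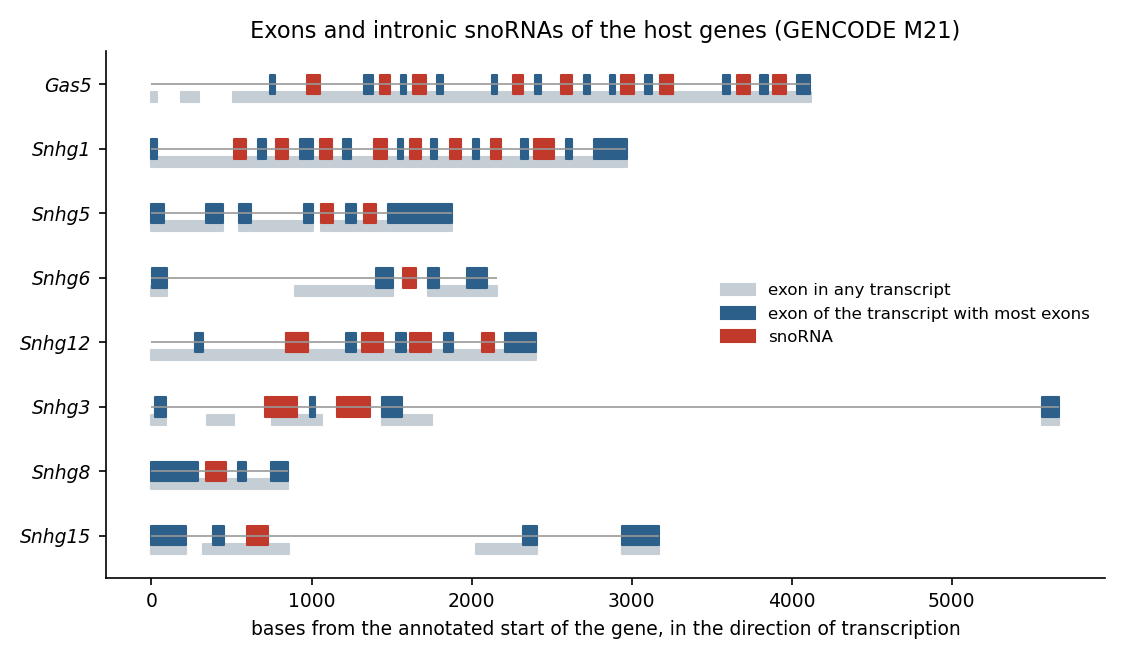
Exons and intronic snoRNAs of the 8 host genes, plotted as bases from the annotated start of each gene in the direction of transcription. Blue boxes are exons of the transcript with most exons, red boxes are snoRNAs and grey boxes are exons of any annotated transcript, including those that retain introns. Gas5 and Snhg1 carry 9 and 8 snoRNA loci, and Snhg6, Snhg8 and Snhg15 carry 1 each.

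RefSeq promoter windows (GRCm38.p6) matched 7 of the 8 genes, all but Snhg6. The promoters are shown because 4 of these 7 hold TATAAA or TATATA between 40 and 11 bases before the start on the strand of the gene, letters that 3.48% of 27025 genes hold there. The letters TATAAA occurred in Snhg5 and Snhg8 (2.51% of all genes), and the letters TATATA occurred in Gas5 and Snhg12 (1.23% of all genes). The pair can overlap in one stretch, so the shares are not additive. A gene with several windows was counted once if any of them matched, and Gas5 has a second RefSeq start whose window holds neither. Each window runs from 60 bases before the start to 20 bases from it, with the matched letters in capitals:
Gas5 promoter, matching start (chr1:161035106-161035185, plus strand): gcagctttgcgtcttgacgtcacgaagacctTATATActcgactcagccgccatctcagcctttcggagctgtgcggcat
Gas5 promoter, other start (chr1:161034541-161034620, plus strand): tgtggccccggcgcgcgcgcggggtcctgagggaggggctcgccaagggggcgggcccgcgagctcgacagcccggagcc
Snhg5 promoter (chr9:88522878-88522957, minus strand): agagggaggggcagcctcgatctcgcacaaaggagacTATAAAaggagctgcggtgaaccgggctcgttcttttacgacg
Snhg8 promoter (chr3:123508317-123508396, minus strand): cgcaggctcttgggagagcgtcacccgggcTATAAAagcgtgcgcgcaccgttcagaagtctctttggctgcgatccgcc
Snhg12 promoter (chr4:132308618-132308697, plus strand): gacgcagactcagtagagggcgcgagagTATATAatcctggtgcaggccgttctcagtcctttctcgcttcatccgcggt
Snhg1 promoter (chr19:8723427-8723506, plus strand): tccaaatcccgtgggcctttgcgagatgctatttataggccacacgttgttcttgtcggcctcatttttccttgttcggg
Snhg15 promoter (chr11:6528741-6528820, minus strand): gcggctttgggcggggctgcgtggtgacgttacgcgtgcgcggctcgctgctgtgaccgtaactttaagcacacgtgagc
Snhg3 promoter (chr4:132353667-132353746, minus strand): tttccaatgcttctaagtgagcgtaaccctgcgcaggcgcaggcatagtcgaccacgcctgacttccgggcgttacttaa
The Snhg1, Snhg15 and Snhg3 windows and the other Gas5 window are shown beside them as windows with no match. The longest run of C and T from 10 bases before to 25 bases after the start, where a TOP tract would lie, was 9 bases in Snhg1 and Snhg12, 7 in Snhg5 and Snhg8, 6 in Gas5 and 5 in Snhg3 and Snhg15, against a median of 5 over all genes. Over the whole window of 250 bases before to 50 after the start, on both strands, the cyclic AMP response element TGACGTCA occurred in Gas5 and Snhg15 (2.03% of all genes) and the E-box CACGTG in Snhg15 (8.09% of all genes). A pair of GAAA stretches spaced by 2 bases, bound by interferon regulatory factors, occurred in 0 of the 7 (3.99% of all genes). These matches describe letters in a window and are not binding data.

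The libraries held 14703215 to 20933919 reads on genes. Replicates differed by more than counting noise (chi-square per degree of freedom of 17.7 in Pich-KO and 9.54 in Pich-WT). Ercc6l, the targeted gene, was at 1142 and 1232 normalized counts in Pich-KO, against 772 and 661 in Pich-WT, so its transcript level does not check the genotype labels of these libraries. Reads of 4 Y-linked genes totalled 1607 to 2848 in 3 libraries and 0 in Pich-WT sample 2, so sex was not balanced between the groups. Of 11 LSK markers, 1 was higher and 5 were lower in Pich-KO, with summed normalized counts of 29715 and 19487 in Pich-KO, against 25128 and 26661 in Pich-WT. Markers of other fetal liver cells were lower in Pich-KO for 13 of 13 macrophage genes (summed 12804 to 13705 against 75627 to 75885), 9 of 9 erythroid genes (31795 to 33880 against 138189 to 196323), 6 of 6 endothelial genes (1449 to 2390 against 19049 to 28294) and 5 of 8 hepatoblast genes (2554 to 3037 against 4258 to 4788). Of 5 lineage-gate genes 1 was lower, with sums of 231 and 638 against 599 and 515, and Ly6g did not exceed 3 reads in any library. The part of these cells in the host gene values was not tested, and in bulk RNA a change in the share of a cell type and a change in RNA per cell cannot be told apart.

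Host gene RNA was higher in Pich-KO LSK cells. Of the 8 genes, 5 rose (Gas5, Snhg1, Snhg5, Snhg6 and Snhg15), 0 fell, and Snhg3, Snhg8 and Snhg12 did not pass the threshold of an adjusted p of 0.05 (limma with Benjamini-Hochberg adjustment over 32428 genes). Over all genes tested, 7.58% were called higher and 9.6% lower. The 7 members other than Snhg3, called or not, had means above 100 normalized counts. Among all 10544 genes with such a mean 21.1% were called higher and 22.4% lower. A rise by a log2 fold change of at least 1 was called for 4 of the 8 genes and for 2.78% of all genes tested. This share includes low genes, and it was not computed for genes with a mean of at least 100, where calls were more frequent. On the recovered reads edgeR called 5 host genes higher (18.6% of 16608 genes tested) and DESeq2 called 7 (17.6% of 14875). Both Pich-KO samples lay above both Pich-WT samples for the 7 genes other than Snhg3, a pattern held by 28.9% of all genes tested and by 41.7% of genes with a mean of at least 100. For Snhg3, Pich-KO sample 1 and Pich-WT sample 1 had 1 read each. The median log2 fold change of the 8 genes was 1.29, or 1.23 without Snhg3, against 0.025 over all genes tested. The limma calls needed the mean-variance trend and all 4 libraries, since without the trend, or with any 1 library left out, limma called 0 genes of the table (5757 to 8599 at an unadjusted p under 0.05), whereas edgeR with any 1 left out called at least the same 5 host genes.

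Summed over the 8 genes, the normalized count was 9134 and 13649 in Pich-KO, compared with 4254 and 4519 in Pich-WT, a 2.60-fold difference between group means. The groups did not overlap, and Pich-KO sample 2 was the highest. Gas5 contributed 61.8% to 64.0% of the members' reads in each library, so the sum followed Gas5. Without Gas5 the sum was 4149 ± 1078 for Pich-KO, compared with 1653 ± 38.5 for Pich-WT (SD, n = 2 each), a 2.51-fold difference.

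Among the box C/D hosts, Gas5 (ENSMUSG00000053332, chr1:161034422-161038539, plus strand), a gene named for its accumulation in growth-arrested cells, was at 5747 and 8737 normalized counts in Pich-KO, against 2628 and 2839 in Pich-WT. Both knockout samples were high and the wild type samples lay close together. Its mean was 2.65-fold higher in Pich-KO (log2 fold change 1.37, SE 0.18, limma with Benjamini-Hochberg adjusted p = 0.00138).

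Snhg1 (ENSMUSG00000108414, chr19:8723475-8726443, plus strand), the host of Snord22 and of 7 further snoRNAs, was at 850 and 1388 in Pich-KO, against 402 and 357 in Pich-WT. The lower knockout sample was 2.12-fold above the higher wild type sample. The log2 fold change was 1.52 (SE 0.23, limma adjusted p = 0.00303).

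Snhg5 (ENSMUSG00000097195, chr9:88521050-88522929, minus strand) hosts the near-identical Snord50 pair shown above. It was at 1061 and 1662 in Pich-KO, against 547 and 587 in Pich-WT, with no overlap between groups. The log2 fold change was 1.23 (SE 0.21, limma adjusted p = 0.00515).

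Snhg6 (ENSMUSG00000098234, chr1:9941959-9944118, minus strand), the host of Snord87, had the closest knockout samples, at 298 and 313 in Pich-KO, against 167 and 153 in Pich-WT. Its log2 fold change was 0.93 (SE 0.19, limma adjusted p = 0.0123). The gene shares 127 exon bases (11.1% of its exon length) with Mcmdc2 on the opposite strand, which was at 33.8 and 35.2 in Pich-KO, against 19.5 and 19 in Pich-WT. Without strand information, reads in that stretch cannot be assigned to one of the pair.

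Among the box H/ACA hosts, Snhg15 (ENSMUSG00000085156, chr11:6525591-6528760, minus strand), the host of Snora9, was at 855 and 1014 in Pich-KO, against 314 and 333 in Pich-WT. Its groups were well apart and its replicates close in both groups. The log2 fold change was 1.52 (SE 0.16, limma adjusted p = 0.000516), the smallest adjusted p of the 8 genes.

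Snhg8 (ENSMUSG00000104960, chr3:123507552-123508404, minus strand), the host of Snora24, was at 191 and 326 in Pich-KO, against 122 and 151 in Pich-WT. The lower knockout sample stood close to the higher wild type sample and the spread within Pich-KO was wide. The log2 fold change was 0.87 (95% interval 0.21 to 1.54) and missed the threshold (limma with Benjamini-Hochberg adjusted p = 0.0807). DESeq2 on the recovered reads called it (adjusted p = 0.0168) and edgeR did not (adjusted p = 0.0507).

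Snhg3 (ENSMUSG00000085241, chr4:132348014-132353686, minus strand), a U17 host, had 1 and 4 reads in Pich-KO, against 1 and 0 in Pich-WT. It is not the only annotated host, since Snora73a and Snora73b also lie in introns of Rcc1 on the same strand. Snhg3 was at or near the floor of 3 reads in every library, so no fold is given and a difference was not detectable at this depth. Of its exon bases 71.5% are shared with Gm17300 on the opposite strand and 135 bases with Rcc1 on the same strand, so the counting rule for shared bases, which is not given in the sources used here, bears on this value. Gm17300 was at 12 and 48.9 in Pich-KO, against 4.69 and 11 in Pich-WT. Rcc1, the guanine nucleotide exchange factor of Ran, whose start lies 81 bases away, was at 5072 and 5434 in Pich-KO, against 2727 and 2857 in Pich-WT and rose by a log2 fold change of 0.91 (SE 0.09, limma adjusted p = 0.000459).

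Snhg12 (ENSMUSG00000086290, chr4:132308623-132311024, plus strand), the host of both kinds of snoRNA, was at 131 and 205 in Pich-KO, against 72.7 and 99 in Pich-WT. It was the lowest of the 7 genes above the floor, and its knockout samples lay above its wild type samples without passing the test. The log2 fold change was 0.94 (95% interval 0.24 to 1.64, limma with Benjamini-Hochberg adjusted p = 0.0734). DESeq2 called this gene too (adjusted p = 0.0285) and edgeR did not (adjusted p = 0.0503).

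**Figure D2:**
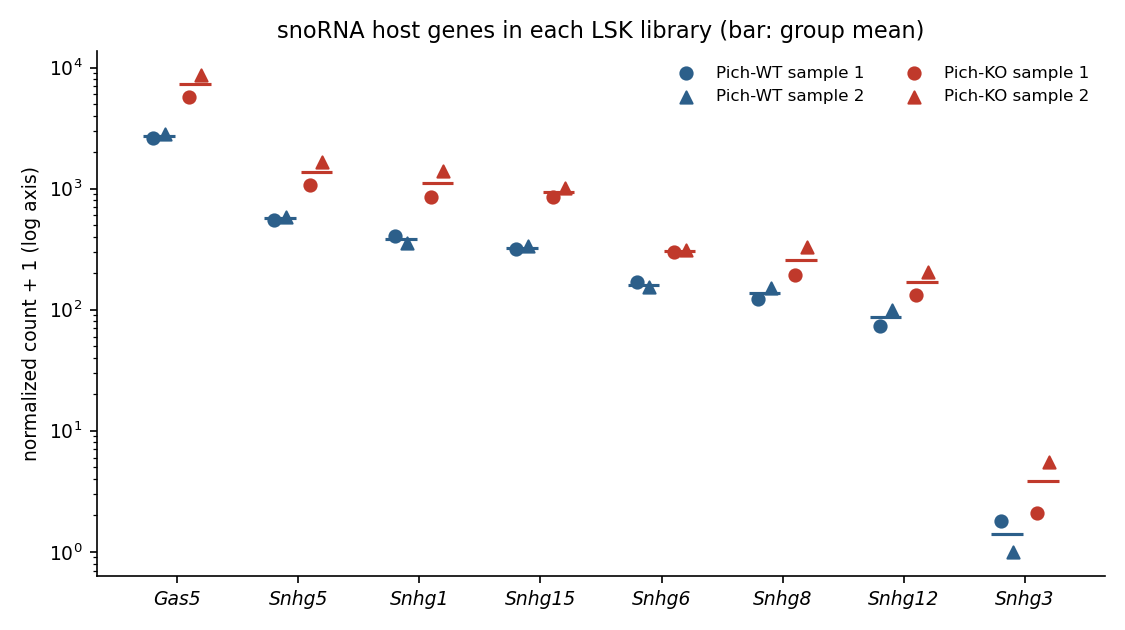
Normalized count plus 1 of each host gene in each library on a log axis, with circles for sample 1, triangles for sample 2 and bars for group means. Gas5 is the highest at 2628 to 8737, Snhg3 lies at the bottom with 0 to 4 reads, and the red Pich-KO points lie above the blue Pich-WT points for the 7 other genes. For Snhg3 the first sample of each group had 1 read, and the gap between those points is the difference in size factor.

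Divided by the gene length of the table, the level in Pich-WT ran from Gas5 (727 normalized counts per kb) through Snhg5 (328), Snhg15 (238), Snhg8 (160), Snhg6 (140), Snhg1 (128) and Snhg12 (35.7) to Snhg3 (0.40). Snhg8 and Snhg6, and Snhg6 and Snhg1, overlapped between their samples in this order. In Pich-KO the order was Gas5 (1926), Snhg5 (787), Snhg15 (688), Snhg1 (377), Snhg8 (303), Snhg6 (266), Snhg12 (69.8) and Snhg3 (2.86), with Snhg5 and Snhg15, Snhg1 and Snhg8, and Snhg8 and Snhg6 overlapping. The lengths count retained introns, and those of Snhg1 (2969 bases), Snhg8 (853 bases) and Snhg12 (2402 bases) equal the whole span of the gene. For every member the longest annotated spliced transcript is shorter than the divisor, so the order rests in part on these lengths.

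The 2 knockout libraries did not carry equal amounts of host RNA. Sample 2 exceeded sample 1 for all 8 genes, Snhg3 resting on 4 reads and 1 read, which held for 50.4% of all genes tested and for 47.8% of those whose mean was 100 or more. This was not particular to them, since it held for 82 of 85 cytosolic ribosomal protein genes, 50 of 65 coding hosts of a named snoRNA and 9 of 11 other noncoding hosts tested. The median difference between them was 0.64 on the log2 scale for the host genes and 0.0067 for all genes tested. The ratio of sample 2 to sample 1 was 1.71 for Snhg8, 1.63 for Snhg1, 1.57 for Snhg5, 1.56 for Snhg12, 1.52 for Gas5, 1.19 for Snhg15 and 1.05 for Snhg6. Without Pich-KO sample 2, the median log2 fold change fell from 1.29 to 0.90, and edgeR still called Gas5, Snhg1, Snhg5, Snhg6 and Snhg15 higher. In the same libraries the summed LSK markers were lower in sample 2 than in sample 1, and their part in this difference was not tested.

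The coding genes whose start lies nearest to that of each member showed no common direction. Distances here run from start to start, not between gene ends. Mcmdc2, which overlaps Snhg6 and is described above, is not among these genes. Slc3a2, encoding the heavy chain of amino acid transporters, starts 106 bases from Snhg1 on the opposite strand and was at 5584 and 4979 in Pich-KO, against 5864 and 5839 in Pich-WT. Its log2 fold change was -0.15 (95% interval -0.36 to 0.06), while that of Snhg1 was 1.52 (95% interval 0.99 to 2.05), so the 2 intervals did not overlap, and the difference between the genes was not tested. Zbtb37, a zinc finger gene whose start lies 427 bases from that of Gas5 on the opposite strand, was at 121 and 125 in Pich-KO, against 68 and 143 in Pich-WT and did not pass the test (log2 fold change 0.32, 95% interval -0.51 to 1.14). Rcc1, described above, and Myo1g, an immune cell myosin 7795 bases from Snhg15 with a log2 fold change of 0.56 (limma adjusted p = 0.00912), were called higher. Rab42, 5238 bases from Snhg12, was called lower at 1.09 and 4.55 normalized counts in Pich-KO, against 21.9 and 15 in Pich-WT (limma adjusted p = 0.0418). Its Pich-KO values rest on 1 and 4 reads, near the floor of 3 reads, so the size of its change is uncertain. Prss12, Zfp949 and Tcf24, at 23814 to 61491 bases from Snhg8, Snhg5 and Snhg6, did not pass the test, with log2 fold changes of -1.22, -0.34 and -0.94. Tcf24 had 5 and 2 reads in Pich-KO, against 7 and 11 in Pich-WT, so its fold change rests on few reads.

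Of 17 further noncoding snoRNA hosts listed, 12 were matched and 11 tested, and 5 rose and 0 fell (45.5% higher, against 7.58% of all genes tested and 21.1% of those whose mean was 100 or more), and the median log2 fold change was 0.83. The count was 3 with a pseudocount of 0.1, with no filter on low genes, when scaled by reads on genes, and by edgeR without Pich-KO sample 2 or without Pich-WT sample 1. Snhg7, Snhg29, Snhg30, Snhg31 and Snhg32 were not analysed here. The 5 that rose were Snhg4 (342 and 629 in Pich-KO, 153 and 171 in Pich-WT, log2 fold change 1.51, limma adjusted p = 0.00832), Zfas1 (1.22), Epb41l4aos (1.05), Snhg17 (1.01) and Snhg16 (0.83). Dancr, Snhg20, Snhg10, Snhg11 and Snhg14 were positive without passing the test (0.35 to 0.88), Snhg18 was at -0.83 without passing it, and Snhg9 did not exceed 3 reads.

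**Figure D3:**
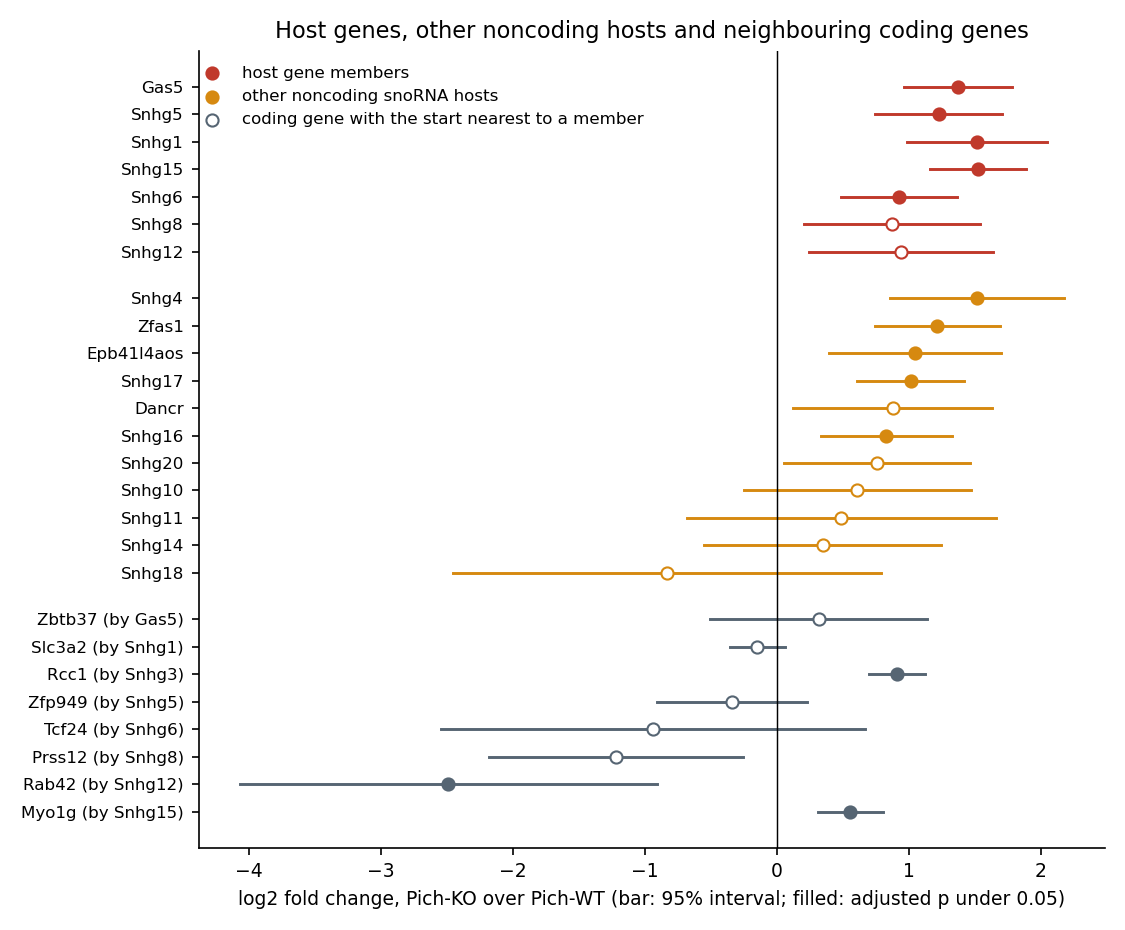
Log2 fold change (Pich-KO over Pich-WT) with its 95% interval for 7 host genes in red and the other noncoding hosts in orange. Snhg3, near the floor of 3 reads, is left out. Grey marks, for each host gene, the coding gene whose start is nearest to its own. Filled points have a limma adjusted p under 0.05. The red points lie between 0.87 and 1.52, whereas the grey points run from -2.49 (Rab42) to 0.91 (Rcc1). Rab42 had 1 and 4 reads in Pich-KO, near the floor of 3 reads.

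By pattern over the 4 libraries, the gene closest to the mean host profile among 10537 other genes with a mean of at least 100 was Zfas1, itself a noncoding snoRNA host (Euclidean distance of 0.044 on the centred log2 scale). It was at 677 and 1009 in Pich-KO, against 358 and 353 in Pich-WT. The next were Cep152, a centrosomal gene (distance 0.10), Kcnq1ot1, an imprinted antisense RNA (0.11), Ptprv, a receptor-type phosphatase gene (0.14), and Npm3, a nucleoplasmin family gene (0.14). With Snhg3 left out of the mean profile, Npm3 came closest (0.076), followed by Zfas1 (0.098). Likeness over 4 libraries rests on few points and says nothing of shared control. Among the members, Snhg5 lay nearest to the mean profile (0.080) and Snhg3 farthest from it (0.81), followed by Snhg6 (0.50).

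**Figure D4:**
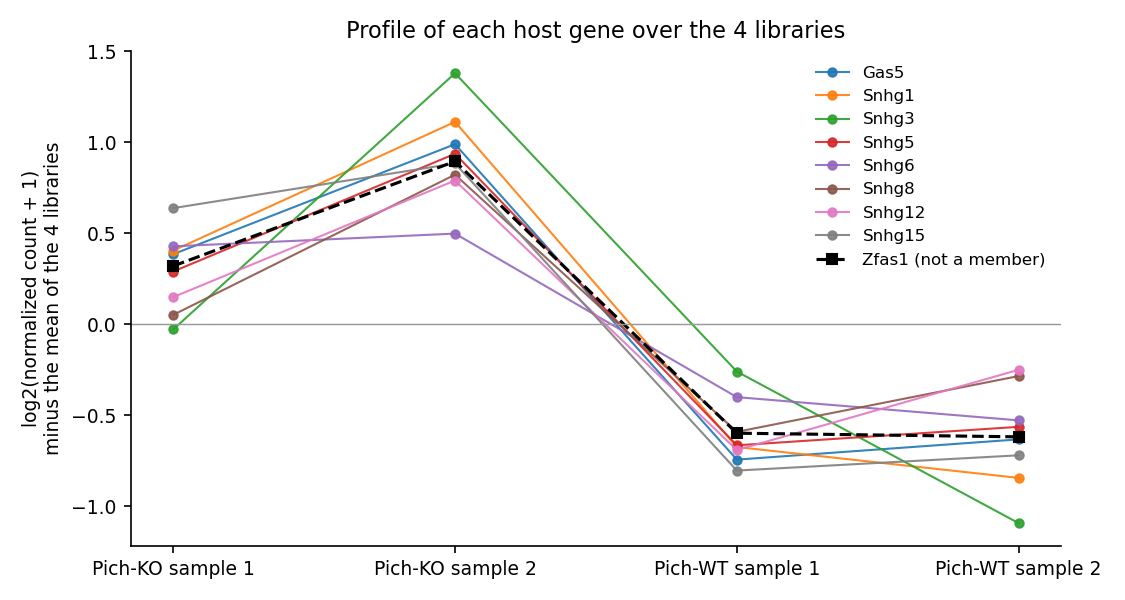
Log2(normalized count + 1) of each host gene in each library, minus its mean over the 4 libraries, with lines joining the values of one gene and Zfas1 dashed in black. Each line other than that of Snhg3 is higher in the Pich-KO libraries. Every line peaks at Pich-KO sample 2 and is below 0 in both Pich-WT libraries. Snhg6 is the flattest and Snhg3, with 0 to 4 reads, the steepest. For Snhg3 the first sample of each group had 1 read, and their gap is the difference in size factor.

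Genes for proteins that bind snoRNAs were mostly higher. All genes counted here had a mean of at least 100, where 21.1% of genes were called higher and 22.4% lower. All 4 box C/D core genes rose, with a median log2 fold change of 0.98. These were Nop58 (1.21) and Nop56 (1.07), the paired scaffold proteins, Snu13 (0.89), which binds the C/D kink turn, and Fbl (0.65), the 2′-O-methyltransferase. Nop58 was at 7171 and 7090 in Pich-KO, against 3035 and 3139 in Pich-WT, with close values in both groups. Of the 4 box H/ACA core genes 3 rose, namely Nhp2 (1.06), Nop10 (0.88) and Dkc1, the pseudouridine synthase (0.68), while Gar1 did not pass the test (0.28, limma adjusted p = 0.137). Of 10 assembly factors 8 rose and 0 fell (median 0.79), from Znhit6 (0.62) to Ruvbl2, an ATPase of the R2TP chaperone complex (1.44), and Pih1d1 (-0.02) and Rpap3 (0.40) did not pass the test.

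Of 17 nonsense-mediated decay factors 8 rose and 2 fell, with a median log2 fold change of 0.47. All 17 had a mean of at least 100, where 21.1% of genes were called higher and 22.4% lower, so 2 lower of 17 (11.8%) is no more than the background. Without Pich-WT sample 2 edgeR called 5 higher, and without either Pich-WT sample it called 1 lower, against 10 and 2 on all 4 libraries. Upf1, the RNA helicase at the centre of the pathway, fell, at 738 and 424 in Pich-KO, against 1375 and 1571 in Pich-WT (log2 fold change -1.39, SE 0.24, limma adjusted p = 0.00582). Casc3, an exon junction complex gene, fell too (-0.42). Nbas rose the most (1.39), and Smg1, the kinase that phosphorylates UPF1, rose by 1.14. RNA levels of these factors do not measure decay activity, and their part in the host gene values was not tested.

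The genes of the next lists are mostly abundant, and 21.1% of all genes with a mean of at least 100 were called higher. Of 17 TOP mRNAs outside the ribosome 14 rose and 0 fell (median 0.49), from Nap1l1 (0.37) to Npm1 (1.26), with Eef1a1, Tpt1 and Eif3h not passing the test. Of 65 protein-coding hosts of a named snoRNA 44 rose and 0 fell (median 0.57), with the largest rise in Ckap5 (1.84), and over all 242 tested protein-coding genes with an intronic snoRNA 96 rose and 27 fell (median 0.31). The lists share genes, since the 65 include Nop56, Nop58, Eef1b2, Eef2, Tpt1, Rack1 and 24 ribosomal protein genes. Among ribosomal protein genes, the 24 that host a named snoRNA had 18 higher and the other 61 had 45 higher, with a median of 0.49 in both. Without Pich-WT sample 1 edgeR called 11 and 25 of these, against 19 and 49 on all 4 libraries, 10 TOP mRNAs against 15, and 5 assembly factors against 9. With no filter on low genes limma called 12 of the 24.

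**Figure D5:**
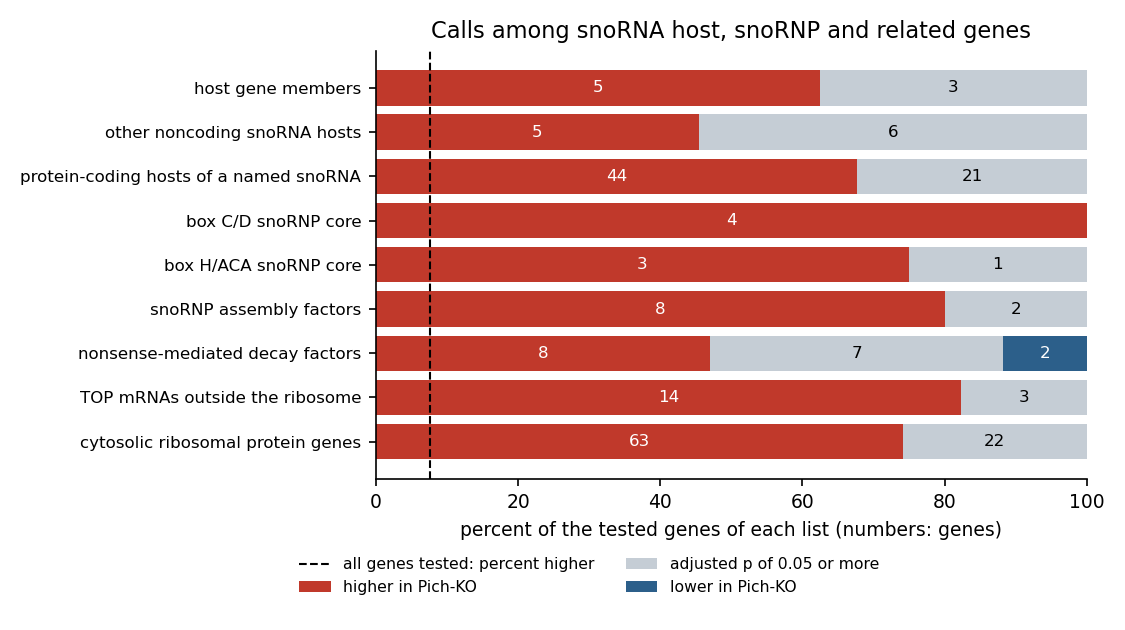
Percent of the tested genes of each list that were called higher (red), not called (grey) or called lower (blue) in Pich-KO by limma, with the number of genes in each bar. The dashed line marks the 7.58% of all tested genes called higher. Blue appears among the nonsense-mediated decay factors, with 2 genes, and in no other list plotted. Some lists share genes, so the bars are not independent.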

How the data were processed

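RNA was measured in 4 samples of sorted fetal liver LSK cells with a kit that does not mark strand. The authors deposited one table of normalized signal, reads per gene divided by a per-sample size factor. The submitters' processing notes name Bowtie 0.12.2 and builds mm8 and mm9, but 97.8% of the 39131 table genes found in GENCODE M21 had its GRCm38 start and end. The counter is not given in the sources used here. The table's group means and its fold changes and p-values are the authors' own comparison and were not used.

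Values were whole multiples of what 1 read is worth (100% within 0.001), which gave the reads. Signal was tested as log2(value + 1) for genes with a mean of at least 1 by limma 3.58.1 with a mean-variance trend (R 4.3.3), with p-values adjusted by Benjamini-Hochberg. On that scale the fold change of a low gene is understated. Alternatives were edgeR 4.0.16 (TMM, upper quartile), DESeq2 1.42.0, other filters, pseudocounts and scalings, and samples left out. The fit was tested on simulated data. The sources state no test for this table. Depth was 14703215 to 20933919 reads, and over all genes replicates differed by more than counting error.

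The members and gene lists were chosen with earlier results of these data known. Genes named were the members, the core proteins, the extremes of each other list, neighbouring and overlapping genes, and the 5 genes most alike in pattern, and other genes named beyond these were chosen after their values were seen. Some named items are not reported here.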

Additional observations from a re-analysis of the deposited data

How the results depend on the processing

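Over 129 combinations of a member and an alternative setting, 97 kept direction and side of the threshold, 25 lost the call, 7 gained it and 0 reversed. All 25 losses came from 5 settings. Without the trend, with 1 prior variance shared by the table, limma called 0 genes higher, 0 lower and 0 members, although 7377 genes had an unadjusted p under 0.05. With any 1 sample left out, limma on the remaining 3 samples, the lone sample taken to vary like the other group, called 0 genes and 0 members, with 5757 to 8599 genes and 3 to 7 members at an unadjusted p under 0.05. The edgeR fits without 1 sample, added after seeing this, called 1717 to 3685 genes higher, 2270 to 3917 lower, and 5 to 7 members. The median log2 fold change of the members ranged from 0.90 (without Pich-KO replicate 2, or 0.94 by edgeR) to 1.60 (without Pich-KO replicate 1) when 1 sample was left out. The 7 gains were in Snhg8 and Snhg12, which passed with the replicate block, by DESeq2 and by edgeR without Pich-KO replicate 1, and for Snhg12 with at least 10 reads required in every sample. With the replicate block 7 members, 3122 genes higher and 3874 lower were called. Same-numbered samples did not deviate together (r = 0.013 over 10544 genes). With 2 samples a group this correlation cannot settle whether they were paired, and the labels do not say. Snhg3 could not be tested by the count tools. Its 10 combinations are among the 97 because it was never called, and DESeq2 gave it no adjusted p. Limits are 2 samples a group, uneven sex, markers of other cell types lower in Pich-KO, and depth for Snhg3 and Snord87. Whether depth limits Snhg8 (151 to 287 reads) and Snhg12 (93 to 180 reads) was not tested.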
